A study of Mus musculus with 8 samples.

Results

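The 10 genes described here encode the enzymes that make serine, pass its carbon through folate, and make asparagine and proline. They are *Phgdh*, *Psat1*, *Psph*, *Shmt1*, *Shmt2*, *Mthfd2*, *Mthfd1l*, *Asns*, *Aldh18a1* and *Pycr1*. They were taken by symbol from the 55536 Ensembl genes in the count tables, with no threshold on a measured value. The choice was made with earlier results of these data known. All 10 were among the 11189 genes with enough counts to be tested. The cells were CD8+ T cells from lymph nodes of OT-1 mice, whose single transgenic T cell receptor recognises the ovalbumin peptide SIINFEKL, on a Rag-1KO background that makes no other T or B cell receptor. The donors were C57BL/6 mice between 5 and 12 weeks old. In both groups the cells met 100 nM SIINFEKL for 2 days and were then kept for 2 days in 20 ng/ml recombinant human IL-2. The 4 GC7 libraries came from cultures with 10 µM GC7, an inhibitor of deoxyhypusine synthase, during the IL-2 phase, and the 4 Mock libraries from cultures given its acetic acid vehicle alone. GC7 is a spermidine analogue used to block the hypusine modification of eIF5a, and a drug added to a whole culture can also act outside that enzyme. Bulk RNA of each culture was sequenced, by what the study calls mRNA-seq. These libraries do not measure protein, so an enzyme or gene said below to rise or fall is its mRNA. In separate samples, the paper reports that GC7 broadly lowered newly made proteins.

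The serine pathway branches from glycolysis at 3-phosphoglycerate, and its product serine gives a carbon unit to tetrahydrofolate as it is cleaved to glycine. In mitochondria this carbon is oxidised to formate, which leaves for the cytosol and is used there for purines, thymidylate and methionine. Activated T cells draw on serine, asparagine and proline as they grow and divide. Several of these enzymes are textbook targets of the transcription factor ATF4, which binds amino acid response elements when amino acids are short or when eIF2 is phosphorylated.

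Total counts per library ranged from 17528776 in GC7 replicate 3 to 25284730 in Mock replicate 2. Mock replicate 2 stood apart from the other Mock libraries on the second principal component, and GC7 replicate 3 was the lowest GC7 library for 9 of the 10 enzymes, so results that turn on either of them are also given with that library left out. Transcripts of the mitochondrial genome took 1.83 to 1.94% of counts in Mock and 0.194 to 0.225% in GC7. The 8 CD8 T cell markers (*Cd8a*, *Cd8b1*, *Cd3d*, *Cd3e*, *Cd3g*, *Cd247*, *Cd2*, *Thy1*) were all present and summed to between 4377 and 5145 CPM (counts brought to a common library size with edgeR's TMM factors) in Mock and between 3753 and 4058 CPM in GC7. Of 22 markers of other cell types, 20 stayed under 2 CPM in every library and 4 of these had no count at all, and the exceptions were *Pecam1* and *Cd79b*. Without that pair the markers summed to 2.0 to 3.16 CPM in Mock and 2.19 to 3.19 CPM in GC7.

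Relative to the rest of each library, GC7-treated cells held more mRNA for *Mthfd2*, *Asns* and *Psph* and less for *Mthfd1l*. *Phgdh*, *Psat1*, *Shmt1*, *Shmt2*, *Aldh18a1* and *Pycr1* did not pass the test. The test was edgeR's quasi-likelihood F test with Benjamini-Hochberg adjustment over all 11189 genes and a threshold of 0.01. The 3 of 10 that rose compare with 23.0% of all tested genes that rose, and the 1 of 10 that fell compares with 23.5% of all tested genes that fell. With 10 genes and so many movers in the whole transcriptome, neither share is a result about the enzymes as a set. With a fold change of at least 2 also required, *Mthfd1l* was the 1 gene lower, against 5.31% of tested genes, and 0 were higher, against 3.17%. No enzyme was higher by 2-fold at an unadjusted p under 0.05 either (0 genes), and DESeq2 and limma-voom also called 0. Every GC7 library lay above every Mock library for 4 enzymes (*Psat1*, *Psph*, *Mthfd2*, *Asns*), against 28.1% of tested genes, and below for *Mthfd1l* alone, against 27.5%. The median log2 fold change (GC7 minus Mock) of the 10 was 0.16, with 7 values positive and 3 negative, and that of all tested genes was 0.02. The count of enzymes that rose depended on single libraries. Without GC7 replicate 3 it was 5, with *Psat1* and *Shmt1* added, against 21.1% of genes tested in that fit. Without both Mock replicate 2 and GC7 replicate 3, an alternative chosen after seeing the data, it was 7, with *Phgdh* and *Aldh18a1* added too, against 28.2%. *Mthfd1l* was the 1 enzyme that fell in each of these fits. In bulk RNA, fewer cells that express a gene and less of its mRNA per cell cannot be told apart. All CPM values are relative to their library and do not give the amount of mRNA per cell.

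**Figure D1:**
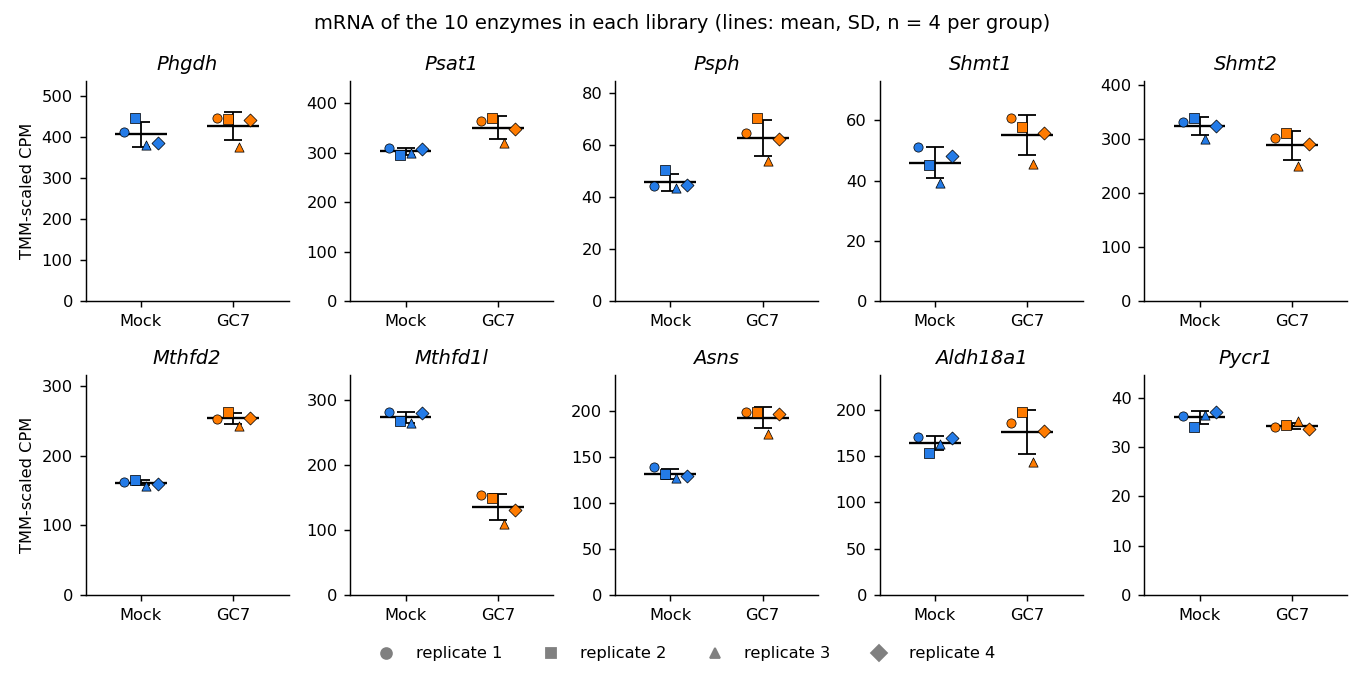
Abundance of each of the 10 mRNAs in TMM-scaled CPM (vertical axes from 0) in the 4 Mock and 4 GC7 libraries, with the symbol giving the replicate number and lines giving the mean and SD. *Mthfd2*, *Asns*, *Psph* and *Psat1* separate upward and *Mthfd1l* downward without overlap, and GC7 replicate 3 (triangle) is the lowest GC7 point in every panel except *Pycr1*.

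The sequences before the start sites of 4 genes are shown because *Asns* and *Pycr1* are the members that hold a match to the C/EBP-ATF composite element through which ATF4 acts, and because *Mthfd2* and *Mthfd1l* moved furthest in opposite directions. They are the RefSeq promoter windows of GRCm38.p6, 5′ to 3′ on the strand of the gene, in lower case with motif matches in capitals. They span chr6:7693225-7693459 (minus strand) for *Asns*, chr11:120643770-120643998 (minus) for *Pycr1*, chr6:83317607-83317854 (minus) for *Mthfd2* and chr10:3972825-3973074 (plus) for *Mthfd1l*. The *Mthfd2* stretch lies before its RefSeq start, which is inside the GENCODE gene span because another GENCODE model of the gene starts further upstream.
Asns: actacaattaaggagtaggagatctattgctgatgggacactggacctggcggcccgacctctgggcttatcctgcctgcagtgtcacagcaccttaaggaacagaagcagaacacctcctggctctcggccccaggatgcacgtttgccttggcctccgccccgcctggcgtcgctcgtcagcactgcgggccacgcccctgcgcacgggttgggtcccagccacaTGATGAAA
Pycr1: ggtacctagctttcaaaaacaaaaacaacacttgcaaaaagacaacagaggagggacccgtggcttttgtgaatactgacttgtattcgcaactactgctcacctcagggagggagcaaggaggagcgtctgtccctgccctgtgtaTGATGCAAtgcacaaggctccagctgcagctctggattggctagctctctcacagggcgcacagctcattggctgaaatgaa
Mthfd2: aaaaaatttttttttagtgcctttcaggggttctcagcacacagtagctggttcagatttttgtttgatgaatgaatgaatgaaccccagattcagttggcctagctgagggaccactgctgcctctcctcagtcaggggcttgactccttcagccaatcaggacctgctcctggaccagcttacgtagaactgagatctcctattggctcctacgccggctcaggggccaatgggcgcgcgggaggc
Mthfd1l: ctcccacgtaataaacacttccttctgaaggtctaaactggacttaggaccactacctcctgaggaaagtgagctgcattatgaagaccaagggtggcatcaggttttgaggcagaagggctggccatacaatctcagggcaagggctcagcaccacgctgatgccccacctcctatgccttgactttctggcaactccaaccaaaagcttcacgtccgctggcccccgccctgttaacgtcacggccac
The element was searched as TGATGNAA on both strands of windows of 300 bases, from 250 before to 50 after the RefSeq start, and it was present in 1304 of 32851 windows (3.97%). Among the 11 windows of the 10 enzymes it was found in *Asns*, where TGATGAAA began 23 bases before the RefSeq start, and in *Pycr1*, where TGATGCAA began 103 bases before it. The *Asns* match lies inside the first exon of the GENCODE model, which starts further upstream, and the printed stretch therefore ends at the match with 30 bases of that exon. The E-box CACGTG, a site bound by MYC, was present in 2349 windows (7.15%), and among the enzymes in *Aldh18a1*, 59 bases before the start. These are matches of letters, and binding was not measured. Of the genes that hold the composite element in this window, *Asns* rose and *Pycr1* did not pass the test. *Mthfd2* and *Psph*, which rose, and *Mthfd1l*, the mRNA that moved most, hold neither motif there. Whether either motif bears on these changes was not tested.

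Serine synthesis from 3-phosphoglycerate takes 3 steps, and the mRNA differences grew from the first enzyme to the last. *Phgdh* (ENSMUSG00000053398, chr3:98313170-98339990), the dehydrogenase that commits 3-phosphoglycerate to serine, measured 412.0, 446.3, 379.3 and 385.6 CPM in Mock and 445.8, 442.2, 375.6 and 441.2 CPM in GC7. The groups overlapped, and the log2 fold change of 0.07 (SE 0.077, 95% interval -0.10 to 0.24, edgeR adjusted p = 0.447) did not pass the test. *Psat1* (ENSMUSG00000024640, chr19:15904678-15947337), the aminotransferase of the next step, measured 309.9, 294.7, 299.2 and 308.1 CPM in Mock and 364.8, 370.9, 319.0 and 348.4 CPM in GC7. All 4 GC7 libraries lay above all Mock libraries, by a log2 fold change of 0.21 (SE 0.0631) with an edgeR adjusted p of 0.0119, just outside the threshold. Without GC7 replicate 3 the value was 0.26 and the adjusted p 0.00156. *Psph* (ENSMUSG00000029446, chr5:129765558-129787449), the phosphatase that releases free serine, measured 44.1, 50.6, 43.6 and 44.6 CPM in Mock and 64.6, 70.5, 53.8 and 62.2 CPM in GC7. It rose 1.37-fold with no overlap between groups (log2 0.46, SE 0.0859, edgeR adjusted p = 6.4e-04). The growth along the pathway is a reading of the 3 values and was not itself tested.

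These 3 genes differ in how cleanly their reads can be assigned. Exons of *Psph* overlap exons of *Cct6a*, a chaperonin gene on the opposite strand that held 4665 to 5778 counts in Mock and 3515 to 5208 in GC7. The strand setting of the counting is not given in the sources used here, so reads from the shared stretch could count for either gene and the *Psph* value is uncertain to that degree. *Phgdh* has 22 transcripts of other genes that match it at 90% identity or more over at least 200 bases, of which 1, the pseudogene *Gm7901*, was tested and held 78 to 144 counts per library, against 6731 to 10562 for *Phgdh*. The 1 copy of *Psat1* had no counts.

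The mRNAs of the serine hydroxymethyltransferases, which split serine into glycine and a folate-bound carbon, leaned apart. *Shmt1* (ENSMUSG00000020534, chr11:60788104-60811718), the cytosolic form, measured 51.2, 45.3, 39.2 and 48.0 CPM in Mock and 60.8, 57.9, 45.6 and 55.7 CPM in GC7. *Shmt2* (ENSMUSG00000025403, chr10:127517123-127522444), the mitochondrial form, measured 331.0, 339.1, 300.4 and 324.3 CPM in Mock and 300.9, 310.3, 250.4 and 290.9 CPM in GC7. Both sets of groups overlapped. Neither gene passed the test alone, with log2 fold changes of 0.26 for *Shmt1* (SE 0.100, edgeR adjusted p = 0.0398) and -0.17 for *Shmt2* (SE 0.0748, adjusted p = 0.0709). The log2 ratio of *Shmt2* to *Shmt1* counts within a library, which does not depend on how libraries are scaled, was 2.69, 2.90, 2.94 and 2.76 in Mock and 2.31, 2.42, 2.46 and 2.39 in GC7. Every GC7 library was thus below every Mock library, and the mean fell by 0.43, from 2.82 ± 0.116 to 2.39 ± 0.0642 (SD, n = 4 each). The two-sided exact permutation p was 0.0286, the smallest that 4 libraries against 4 can give, and 0.0857 after adjustment over the 3 ratios tested, so the difference did not pass the correction. Exons of *Shmt1* overlap those of *Smcr8* on the opposite strand, which held 526 to 798 counts in Mock and 720 to 1007 in GC7, and the part of *Smcr8* reads in the *Shmt1* value was not tested. The overlapping partner of *Shmt2*, *Ndufa4l2*, held at most 8 counts.

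The mRNAs of the next enzymes of the mitochondrial folate route moved in opposite directions. *Mthfd2* (ENSMUSG00000005667, chr6:83305691-83325908) oxidises the carbon unit on folate in mitochondria and is low in most resting adult tissues. It measured 162.8, 165.4, 156.7 and 159.7 CPM in Mock and 252.6, 263.1, 242.9 and 254.3 CPM in GC7. The groups were far apart relative to their spread, with means of 161.1 ± 3.77 and 253.2 ± 8.31 CPM (SD, n = 4), a 1.57-fold rise (log2 0.65, SE 0.0546, edgeR adjusted p = 8.6e-07). *Mthfd1l* (ENSMUSG00000040675, chr10:3973118-4167081), the synthetase that releases the carbon as formate for export, measured 282.3, 268.1, 265.3 and 279.4 CPM in Mock and 154.3, 148.7, 109.7 and 131.4 CPM in GC7. It fell from 273.8 ± 8.37 to 136.0 ± 20.1 CPM (log2 -1.01, SE 0.0937, edgeR adjusted p = 2.1e-06). This change sits on the 2-fold limit. Without GC7 replicate 3, the lowest library, it was -0.91, and the 2-fold criterion was then not met, nor was it without GC7 replicate 4.

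In Mock cells the synthetase mRNA was the more abundant of the pair in reads, and in GC7 cells the order was turned. The log2 ratio of *Mthfd2* to *Mthfd1l* counts was -0.79, -0.70, -0.76 and -0.81 in Mock and 0.71, 0.82, 1.15 and 0.95 in GC7, a 3.19-fold shift of the mean. Per kilobase of exon, with all annotated exons of a gene merged, *Mthfd2* went from 46.2 to 72.6 CPM and *Mthfd1l* from 61.7 to 30.7 CPM. *Mthfd1*, the cytosolic enzyme that carries out these folate steps in the other compartment, rose from 83.0 to 133 CPM (log2 0.68, SE 0.0749, edgeR adjusted p = 9.0e-06). The *Mthfd2* to *Mthfd1* log2 ratio was 0.96 ± 0.0591 in Mock and 0.93 ± 0.112 in GC7 (SD, n = 4), a difference of -0.02 with a two-sided exact permutation p of 0.714 (adjusted p = 0.714). *Mthfd2* and *Mthfd1* thus each rose and their ratio did not differ beyond its spread, while the *Mthfd1* to *Mthfd1l* ratio shifted 3.24-fold, from a log2 of -1.72 ± 0.0173 to -0.03 ± 0.0751. *Aldh1l2*, which disposes of the same mitochondrial formyl-folate that *Mthfd1l* uses, by oxidising it to carbon dioxide, rose from 5.68 to 16.8 CPM (log2 1.58, SE 0.230, adjusted p = 9.0e-05). Mock replicate 2 was its lowest library, at 2.68 CPM, and without that library the log2 value of *Aldh1l2* was 1.33. The ratios with *Mthfd1l* were chosen after the values were seen and have no test.

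**Figure D2:**
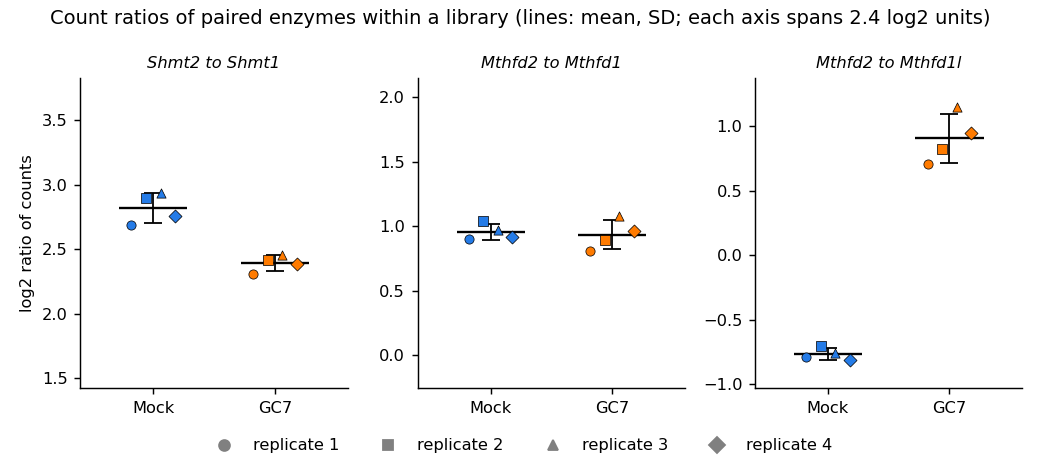
Log2 ratio of the counts of paired enzymes in each library (vertical axes, log2 units, all of the same span), with the symbol giving the replicate number and lines giving mean and SD of 4 libraries. *Shmt2* to *Shmt1* is lower in all GC7 libraries, the *Mthfd2* to *Mthfd1* ratios overlap, and *Mthfd2* to *Mthfd1l* passes from below 0 in Mock to above 0 in GC7.

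The genes whose pattern over the 8 libraries was most like that of *Mthfd1l* were *Ak4*, a mitochondrial adenylate kinase (Pearson r 0.9993 of log2 CPM), *Sobp* (0.9989), *Pcx*, the mitochondrial pyruvate carboxylase (0.9986), *Gramd4* (0.9983) and *Zfp36l2*, an RNA-binding protein (0.9978). Their log2 fold changes ran from -1.61 for *Ak4* to -0.67 for *Gramd4*. The 8 points fall into 2 groups far apart, and 865 tested genes had an r above 0.95.

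The mRNA of asparagine synthetase rose, and those of the enzymes of proline synthesis did not pass the test. *Asns* (ENSMUSG00000029752, chr6:7675169-7693254) makes asparagine from aspartate with nitrogen from glutamine. It measured 139.2, 131.5, 126.9 and 129.2 CPM in Mock and 199.1, 198.2, 175.2 and 196.3 CPM in GC7. All GC7 libraries were above all Mock libraries, with GC7 replicate 3 the nearest to Mock, and the rise was 1.46-fold (log2 0.55, SE 0.0623, edgeR adjusted p = 1.2e-05). *Aldh18a1* (ENSMUSG00000025007, chr19:40550257-40588463), which turns glutamate into the pyrroline-carboxylate precursor of proline, measured 170.8, 153.6, 163.1 and 169.5 CPM in Mock and 186.0, 198.2, 143.5 and 177.0 CPM in GC7. GC7 replicate 3 held the lowest value of all 8 and the other GC7 libraries the highest, and the log2 fold change was 0.10 (SE 0.0892, 95% interval -0.09 to 0.30, edgeR adjusted p = 0.345). *Pycr1* (ENSMUSG00000025140, chr11:120635712-120643769), the mitochondrial reductase that completes proline, measured 36.2, 34.1, 36.5 and 37.2 CPM in Mock and 34.0, 34.4, 35.2 and 33.7 CPM in GC7. Its log2 fold change was -0.07 (SE 0.0611, 95% interval -0.20 to 0.06, edgeR adjusted p = 0.356) and became 0.03 when libraries were scaled by their totals.

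Per kilobase of exon the 10 mRNAs spanned a wide range. The length is that of all annotated exons of a gene merged. Close ranks can therefore depend on which transcript forms the cells made, which was not tested. In Mock cells *Phgdh* led with 163.2 CPM per kilobase, followed by *Shmt2* (104.1), *Psat1* (71.2), *Mthfd1l* (61.7), *Asns* (48.2), *Mthfd2* (46.2), *Aldh18a1* (40.3), *Shmt1* (11.8), *Psph* (10.6) and *Pycr1* (9.15). The libraries of *Asns* and *Mthfd2* overlapped, as did those of *Shmt1* and *Psph*, and the other neighbours in this order were separate. In GC7 cells *Phgdh* (171.4), *Shmt2* (92.7) and *Psat1* (82.5) again led, *Mthfd2* (72.6) and *Asns* (70.3) came next, and *Mthfd1l* (30.7) lay below *Aldh18a1* (43.3). There *Shmt2* overlapped *Psat1*, *Psat1* overlapped *Mthfd2*, *Mthfd2* overlapped *Asns*, and *Psph* (14.5) overlapped *Shmt1* (14.2). As a share of all reads, the 10 mRNAs made up 0.189, 0.179, 0.177 and 0.183% of counts in Mock and 0.213, 0.217, 0.179 and 0.203% in GC7, so the groups overlapped through GC7 replicate 3.

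Among 49 other genes of these pathways, 38 were tested, of which 12 rose and 6 fell at the same threshold, with a median log2 fold change of 0.08. In this and the following lists, the counts stand against 23.0% of all tested genes that rose and 23.5% that fell. No list was tested as a set, and the lists were chosen with earlier results of these data known. Without GC7 replicate 3 the counts were 12 and 7, and without both libraries named above 14 and 8. Of 17 tested folate and one-carbon genes, 7 rose (*Mthfd1*, *Mtr*, *Mtrr*, *Aldh1l2*, *Fpgs*, *Gart*, *Mat2a*), against 23.0% of all tested genes, with a list median of 0.26 against 0.02 for all genes. In the same list 0 fell by edgeR, 2 were lower at an unadjusted p under 0.05 (*Atic*, *Mat2b*), and DESeq2 and limma-voom called 0. The count of folate genes that fell became 1 without GC7 replicate 3 and 2 without both that library and Mock replicate 2. *Mat2a*, which makes the methyl donor S-adenosylmethionine, went from 102 to 209 CPM (log2 1.04, SE 0.0597, edgeR adjusted p = 3.3e-08). Among the 7 are enzymes of the cytosolic folate cycle (*Mthfd1*), the methionine cycle (*Mtr*, *Mat2a*) and the mitochondrial route (*Aldh1l2*), and thymidylate synthase, *Tyms*, had a value of -0.01.

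Of 9 tested serine and glycine genes, 2 rose and 2 fell, shares close to the 23.0% and 23.5% of all tested genes. *Gcat*, which splits the threonine product aminoketobutyrate into glycine and acetyl-CoA, fell from 10.6 to 4.56 CPM (log2 -1.21, edgeR adjusted p = 1.5e-05). Mock replicate 2 was its highest library, and without that library the log2 value of *Gcat* was -1.07. The *Gcat* symbol has 2 Ensembl identifiers in the tables, and the value is that of the one that passed the count filter. *Sfxn3*, a mitochondrial serine carrier, fell from 49.2 to 31.9 CPM (log2 -0.63, edgeR adjusted p = 1.2e-05), while its paralogue *Sfxn1* had a value of -0.08.

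Of 6 other asparagine and aspartate genes tested, 3 fell, against 23.5% of all tested genes, and 0 rose by edgeR. None (0) was higher at an unadjusted p under 0.05, by DESeq2 or by limma-voom, and 1 was called higher without Mock replicate 2 and GC7 replicate 3. The 3 that did not pass had log2 values of -0.08 (*Got2*), -0.01 (*Nars*) and 0.09 (*Ass1*). *Asl*, which splits argininosuccinate into arginine and fumarate, fell from 40.2 to 20.0 CPM (log2 -1.01, edgeR adjusted p = 3.6e-07), and *Asrgl1*, an enzyme that breaks down asparagine, from 50.4 to 39.1 CPM (log2 -0.37, adjusted p = 4.4e-04). The other gene that fell was the aspartate aminotransferase *Got1*, with a value of -0.26. The mRNAs of *Asns* and *Asrgl1*, whose enzymes make and consume asparagine, moved in opposite directions.

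Of 6 tested proline and ornithine genes, 3 rose and 1 fell, against 23.0% and 23.5% of all tested genes, and 2 rose without GC7 replicate 3. *Aldh4a1*, which takes the last step of proline breakdown to glutamate, rose from 9.20 to 20.9 CPM (log2 1.18, edgeR adjusted p = 9.1e-07). *Prodh*, which takes the first step, was 1.99 CPM in Mock and 3.41 CPM in GC7 (log2 0.78, adjusted p = 0.00188). It exceeded the filter of 3 CPM in the 4 GC7 libraries and in no Mock library, so it was tested only through the group where it is high and could not be tested with any GC7 library left out. *Prodh* is counted among the 3 that rose here and among the 12 of the other pathway genes. Neither synthetic enzyme, *Aldh18a1* or *Pycr1*, passed the test.

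**Figure D3:**
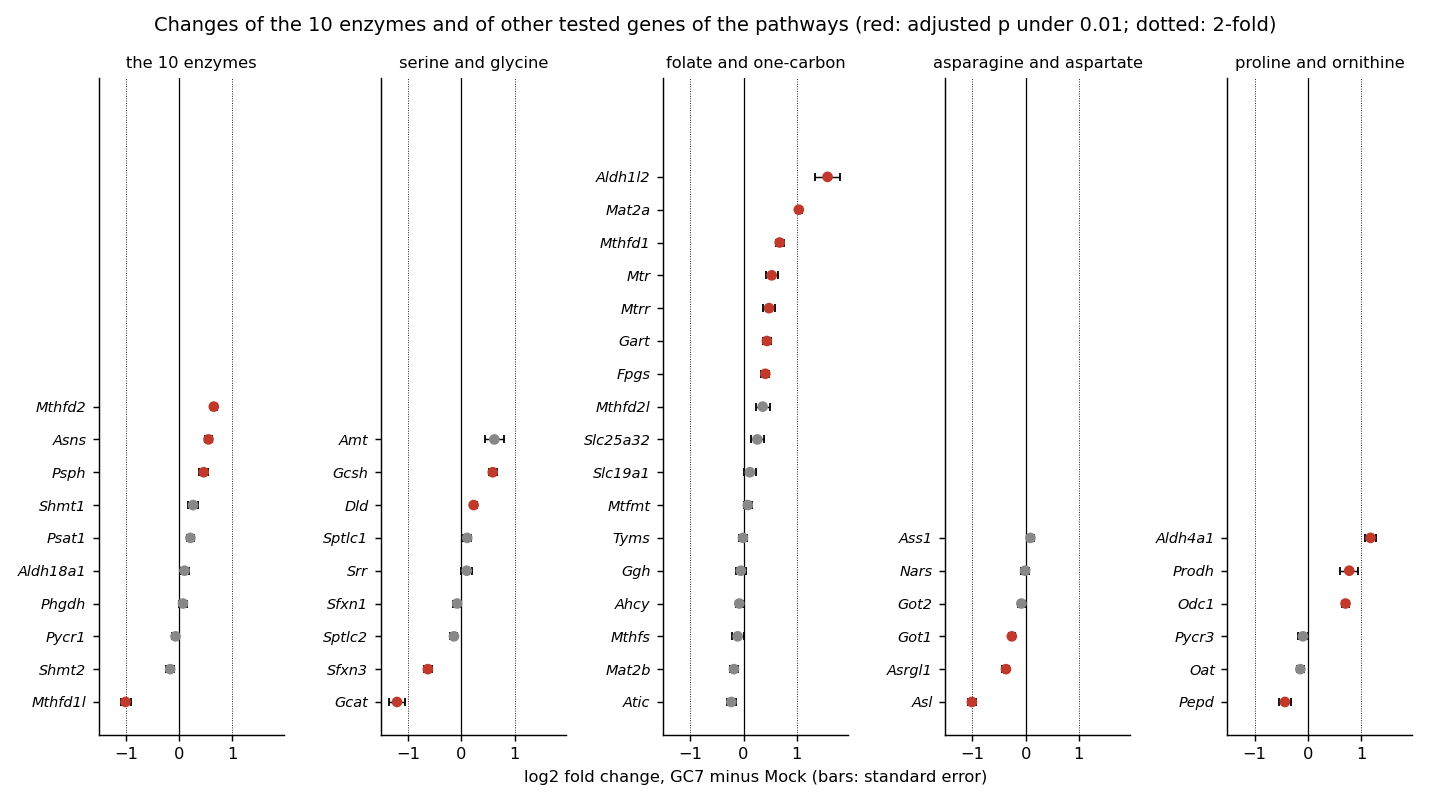
Log2 fold change (GC7 minus Mock, horizontal axis, bars giving the standard error) of the 10 enzymes and of the tested genes of 4 related lists, with red points for an edgeR adjusted p under 0.01 and dotted lines at a 2-fold change. The folate panel has 7 red points, all to the right of 0, and the asparagine panel has 3, all to the left.

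Of the 6 regulators listed for these enzymes, 2 rose and 1 fell, against 23.0% and 23.5% of all tested genes. *Atf5*, a factor of the same family as ATF4, went from 23.5 to 40.8 CPM (log2 0.80, edgeR adjusted p = 9.4e-06), and *Nfe2l2*, which encodes NRF2, had a value of 0.72. *Myc* fell from 237 to 131 CPM (log2 -0.85, SE 0.143, edgeR adjusted p = 2.7e-04). GC7 replicate 3 was its lowest library, at 86.2 CPM, and without that library the log2 value of *Myc* was -0.69. *Atf4* mRNA, named here after its values were seen because its targets are at issue, was 390 CPM in Mock and 361 CPM in GC7 (log2 -0.11, edgeR adjusted p = 0.18), and its protein, which is set largely by translation, was not measured. Of 19 other tested ATF4 targets, 8 rose and 6 fell, against 23.0% and 23.5% of all tested genes, with a median of 0.08. Without GC7 replicate 3 these counts were 7 and 4, in a fit that did not test *Chac1*. The largest rises in that list were of *Cth*, the cysteine-making enzyme of transsulfuration, from 4.45 to 48.9 CPM (log2 3.46, edgeR adjusted p = 9.1e-11), *Sesn2*, from 50.8 to 131 CPM (log2 1.37, adjusted p = 1.9e-09), and *Nupr1* (log2 1.19, adjusted p = 3.0e-06). *Chac1* had a log2 value of 1.01 (edgeR adjusted p = 9.0e-04), but it too exceeded 3 CPM only in the GC7 libraries and was tested through them alone. It is counted among the 8 that rose, and it could not be tested with any GC7 library left out. Among those that fell were *Vldlr*, *Ddit4*, *Stc2* and *Ppp1r15a*, with log2 values from -0.90 to -0.47.

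**Figure D4:**
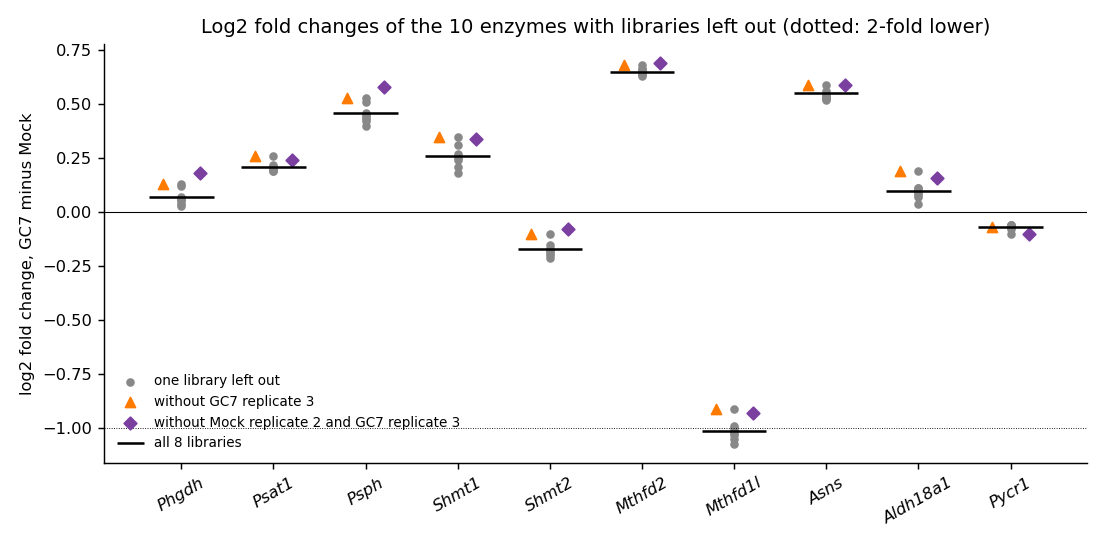
Log2 fold change (GC7 minus Mock, vertical axis) of each enzyme with all 8 libraries (black line), with each library left out in turn (grey), without GC7 replicate 3 (triangle) and without Mock replicate 2 and GC7 replicate 3 (diamond). *Mthfd2* stays between 0.63 and 0.69, *Asns* between 0.52 and 0.59 and *Psph* between 0.40 and 0.58, and *Mthfd1l* lies from -1.07 to -0.91, on either side of the dotted 2-fold line.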

How the data were processed

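Bulk RNA was measured in 4 Mock and 4 GC7 libraries. The deposited values are raw read counts per Ensembl gene, 1 column per library. Per the labels and the study's methods, these come from paired-end reads that the authors passed through Cutadapt, STAR (GRCm38, Ensembl 96) and featureCounts; strand and multimapping settings are not given in the sources used here. All columns were mapped to samples by title. From the counts, CPM was computed with TMM factors in edgeR 4.0.16 (R 4.3.3), genes with more than 3 CPM (52.6 to 75.9 counts) in at least 4 libraries were kept, and the groups were compared by the quasi-likelihood F test with Benjamini-Hochberg adjustment, with the group as the only term. The ± values are SD, and SE values belong to the log2 fold changes. Ratios of counts (0.5 added) were compared by two-sided exact permutation over libraries. DESeq2 1.42.0, limma-voom 3.58.1, other scalings and filters, a replicate block and left-out libraries were tried as alternatives. Near copies were sought with BLAST 2.17.0 in GENCODE M21 transcripts, promoter windows came from RefSeq (GRCm38.p6), and all 10 enzymes had one. The fitting code was tested on simulated counts. The members and gene lists were chosen with earlier results of these data known. A few genes of the lists and 1 of the 3 ratios are not reported here; that ratio still counts in the adjustment. Genes named from each related list were those past 0.01 and 2-fold or, where fewer than 2 were, the 2 with the largest change past 0.01; lists with other named genes give them as examples chosen after their values were seen. The study calls the libraries biological replicates but nothing in the labels ties them to separate mice. The p-values thus measure the spread between these samples. Libraries of a group were not equally alike. The mean chi-square per well-counted gene was 2.69 between GC7 replicates 1 and 2 and 24.5 between 1 and 3. In Mock it was 4.74 between replicates 1 and 3 and 34.4 between 1 and 2. Whether the closer libraries share a source was not tested.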

Additional observations from a re-analysis of the deposited data

Results flagged for a closer look

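Among 58 groups of 4 libraries examined for the reported quantities, 3 had a library whose gap to its nearest neighbour took more of the group's whole range than Dixon's 95% critical value allows, where chance flags about 1 in 20. GC7 replicate 3 was the low library for *Phgdh* (375.6 CPM against 441.2 to 445.8 CPM, gap 0.934 of the range) and for *Asns* (175.2 CPM against 196.3 to 199.1 CPM, 0.881). Mock replicate 2 was the high library for *Psph* (50.6 CPM against 43.6 to 44.6 CPM, 0.854). Without GC7 replicate 3 the log2 fold change of *Asns* was 0.59 and that of *Phgdh* 0.13, and without Mock replicate 2 that of *Psph* was 0.51. The part of either library's preparation in these values was not tested.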

How the results depend on the processing

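*Psph*, *Mthfd2*, *Mthfd1l* and *Asns* kept their direction and their side of the 0.01 threshold in all 17 alternatives, with log2 ranges of 0.40 to 0.58, 0.63 to 0.75, -1.07 to -0.91 and 0.52 to 0.64. *Psat1* also passed with library totals (adjusted p = 0.00176), DESeq2 (0.00255) and without GC7 replicate 3, and *Shmt1* with the replicate block (0.00751), with no low-count filter (0.00908) and without GC7 replicate 3 (0.00637). *Phgdh* and *Aldh18a1* passed only without both Mock replicate 2 and GC7 replicate 3 (0.18 and 0.16, adjusted p = 0.00198 and 0.00706), and *Shmt2* and *Pycr1* in none. Over the fits with libraries left out, enzyme mRNAs that rose numbered 3 to 7 and those lower by 2-fold 0 to 1. The counts of 0 came without GC7 replicate 3, without GC7 replicate 4 and without both libraries. With library totals the count lower by 2-fold was also 0. Genes lower and higher by 2-fold numbered 1189 and 773 with no low-count filter, where 28350 genes were tested. With filterByExpr, where 14517 were tested, they numbered 1013 and 601. The part of the added genes in these counts was not tested. With libraries left out, the genes higher by 2-fold ranged from 227 to 362. Library totals moved the median of all genes by 0.094 and turned *Pycr1* to 0.03. With libraries left out, the *Mthfd2* to *Mthfd1* log2 ratio difference ranged from -0.07 to 0.02; the cause was not tested. Same-numbered libraries did not deviate together (correlations 0.272, -0.116, 0.202 and -0.183), so the numbers were not taken as pairs; the replicate block called 2485 lower and 2382 higher genes against 2635 and 2579, with 596 and 358 past 2-fold, 2438, 2321, 591 and 353 of them shared with the fit without it, and 4 enzymes higher. It left 11 of the other pathway genes higher and 6 lower.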

Other observations

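The glycine cleavage system, the mitochondrial complex that breaks glycine down and passes its carbon to folate, was described after its values were seen. Its carrier protein *Gcsh* rose from 16.7 to 25.2 CPM (log2 0.59, SE 0.0741, edgeR adjusted p = 2.6e-05) and its dehydrogenase *Dld*, shared with other complexes, from 74.8 to 87.6 CPM (log2 0.23, adjusted p = 0.00373). The aminomethyltransferase *Amt* was 3.90 CPM in Mock and 6.03 CPM in GC7, with every GC7 library above every Mock library (log2 0.62, adjusted p = 0.0107). The decarboxylase *Gldc* was below the count filter, at 0.501 CPM in Mock and 0.885 CPM in GC7, with overlapping groups. *Odc1*, the ornithine decarboxylase that opens polyamine synthesis and makes the precursor of the spermidine with which GC7 competes, rose from 329.0 to 539.7 CPM (log2 0.71, SE 0.0585, edgeR adjusted p = 7.0e-07).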
